A study of Arabidopsis with 12 samples.

Results

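The genes described here are those whose transcripts were higher with methyl jasmonate (MeJA) than with mock in both signalling mutants of the series, coi1-2 and ein3 eil1, and also in wild type Arabidopsis seedlings (Col-0). A probe set was taken when its mean log2 level with MeJA was at least 0.8 above that with mock in each of the 3 genotypes, with both MeJA arrays above both mock arrays. Probe sets whose symbol starts with UGT or GST were left out. This went by symbol alone. The 55 members without a gene name could not be screened, so genes of these families could remain among them or under another name. The glucosyltransferase gene IAGLU is among the members. Of 22746 probe sets on the ATH1 array, 285 met the condition in coi1-2 (1.25%), 233 in ein3 eil1 (1.02%) and 674 in Col-0 (2.96%). All 3 conditions were met by 100, of which 11 were left out for their symbol, so that 89 members remained. The members were thus chosen by the MeJA response of each genotype, and the responses are given as a description and are not tested.

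The study treated whole seedlings, 7 days old and grown at 23 °C on MS medium in long days, for 4 h with 100 µM MeJA or with the ethanol solvent (mock). The groups were coi1-2 MeJA and coi1-2 mock, ein3 eil1 MeJA and ein3 eil1 mock, and Col-0 MeJA and Col-0 mock, all in the Columbia background. Each was represented by 2 arrays, 12 in all, and values are log2 RMA levels per probe set. The labels number the replicates without saying that they came from separate cultures. The p-values therefore measure nothing but the spread among arrays, which may be technical. In whole seedlings, more cells that express a gene and more RNA per cell cannot be told apart.

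Jasmonate is perceived by COI1, the F-box protein that, once bound to the conjugated hormone, marks JAZ repressors for destruction and thereby frees MYC transcription factors. The coi1-2 allele is known to be leaky, so a response in that mutant is not a response without any COI1. EIN3 and EIL1 are the transcription factors at the end of ethylene signalling, and jasmonate and ethylene act together on part of plant defence. Oxylipins related to jasmonate also induce detoxification genes through TGA factors with little need for COI1, as is known from other work on Arabidopsis.

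EIN3 was at 6.03 and 5.91 in ein3 eil1 MeJA and at 5.95 and 6.25 in ein3 eil1 mock, against 9.52 and 9.50 in Col-0 MeJA and 9.59 and 9.50 in Col-0 mock. Its mean over both treatments differed from Col-0 by −3.49 ± 0.10 (log2, SE, limma adjusted p = 4.78e-10). The transcripts of COI1 itself and of EIL1 were not used here. The shoot marker RCA, rubisco activase, was between 12.5 and 12.8 on every array, and the mean of the root markers PYK10 and AT3G01190 was between 8.77 and 9.68. That root marker mean was 9.62 and 9.61 in coi1-2 MeJA against 8.77 and 8.83 in coi1-2 mock, 9.28 and 9.35 in ein3 eil1 MeJA against 9.63 and 9.42 in ein3 eil1 mock, and 9.34 and 8.81 in Col-0 MeJA against 9.34 and 9.68 in Col-0 mock. Its part in the members' values was not tested. Replicate arrays correlated at 0.9898 (ein3 eil1 MeJA) to 0.9961 (coi1-2 MeJA), and ein3 eil1 MeJA replicate 2 stood apart from replicate 1 on the second principal component (−22.5 against 0.3). Without ein3 eil1 MeJA replicate 2 the rule gave 73 probe sets, 68 of them among the 89, and without ein3 eil1 MeJA replicate 1 it gave 110, with 88 of the 89 among them.

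In the annotation used here, 33 of the 89 members matched a single gene name, 1 matched several and 55 matched none. Only 6 of the named members carried a symbol (SUFE2, OCT5, APS3, GRX480, IAGLU and SIR), and the other 27 were known by locus code, for which no role is given. The members without a single gene name had median responses of 1.44 in coi1-2, 1.16 in ein3 eil1 and 1.79 in Col-0 over 56 probe sets, against 1.20 in coi1-2, 1.16 in ein3 eil1 and 1.84 in Col-0 over the 33 named ones. The highest response of any member in ein3 eil1 (3.87) and in Col-0 (5.14) was that of the same probe set, which had no gene name. The members' mean levels over 12 arrays ran from 4.82 to 11.3 with a median of 8.09, against 5.31 for all probe sets, and 87 of 89 lay above that median. In 24 members the mock mean of at least 1 genotype lay below the median of its arrays. There a signal may be background, and a response may read too small. Among these members were OCT5 in Col-0, GRX480 in coi1-2 and AT3G60490 in both of these genotypes.

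Genes of sulfur metabolism were among the members with symbols. SUFE2 encodes a SufE-like protein that activates the cysteine desulfurase of plastids for iron-sulfur cluster assembly. With MeJA, SUFE2 was at 10.01 and 10.02 in coi1-2, 9.67 and 9.47 in ein3 eil1 and 9.54 and 9.55 in Col-0. Mock levels of SUFE2 were 8.15 and 8.10 in coi1-2, 7.81 and 7.65 in ein3 eil1 and 7.38 and 6.85 in Col-0. The MeJA arrays lay above the mock arrays by 1.89 in coi1-2, 1.84 in ein3 eil1 and 2.43 in Col-0 (SE 0.16), and coi1-2 was the highest genotype in both treatments.

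APS3 encodes an ATP sulfurylase, the enzyme that activates sulfate in the first step of its assimilation. With MeJA, APS3 was at 7.46 and 7.62 in coi1-2, 9.84 and 9.73 in ein3 eil1 and 8.68 and 8.33 in Col-0. Mock levels of APS3 were 6.23 and 6.33 in coi1-2, 8.06 and 8.15 in ein3 eil1 and 7.15 and 7.24 in Col-0. The order of the genotypes was the same in both treatments, with ein3 eil1 highest and coi1-2 lowest and no overlap between genotypes. Its responses were 1.26 in coi1-2, 1.68 in ein3 eil1 and 1.31 in Col-0 (SE 0.14), the largest of them in ein3 eil1.

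SIR, sulfite reductase, makes sulfide later in the same pathway. With MeJA, SIR was at 10.15 and 10.29 in coi1-2, 11.02 and 10.87 in ein3 eil1 and 10.53 and 10.51 in Col-0. Mock levels of SIR were 9.20 and 9.22 in coi1-2, 10.05 and 9.96 in ein3 eil1 and 9.84 and 9.50 in Col-0. SIR had one of the most even responses, 1.01 in coi1-2, 0.94 in ein3 eil1 and 0.85 in Col-0 (SE 0.14), and it was already among the more abundant members under mock. On the list of sulfate assimilation and glutathione synthesis, 2 genes had a named probe set. These were the member APS3 and APS4 (AT5G43780), another ATP sulfurylase gene. SIR and SUFE2 were not on that list. Responses of APS4 were 0.07 in coi1-2, −0.34 in ein3 eil1 and −0.08 in Col-0. APS4 passed in none of them in limma (at an unadjusted p under 0.05, in ein3 eil1 alone).

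GRX480, also called ROXY19, is a glutaredoxin known to bind TGA factors. With MeJA, GRX480 was at 6.50 and 6.13 in coi1-2, 9.16 and 9.80 in ein3 eil1 and 7.60 and 7.34 in Col-0. Mock levels of GRX480 were 5.13 and 5.19 in coi1-2, 7.87 and 8.69 in ein3 eil1 and 5.68 and 5.24 in Col-0. The ein3 eil1 mock arrays already lay above every Col-0 MeJA array, while coi1-2 stayed low with MeJA. Its responses were 1.15 in coi1-2, 1.21 in ein3 eil1 and 2.01 in Col-0 (SE 0.27).

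OCT5 encodes a transporter of the organic cation and carnitine family. With MeJA, OCT5 was at 8.05 and 7.89 in coi1-2, 8.01 and 8.0 in ein3 eil1 and 7.46 and 7.11 in Col-0. Mock levels of OCT5 were 5.76 and 6.14 in coi1-2, 6.56 and 6.57 in ein3 eil1 and 5.03 and 4.92 in Col-0. Both mutants lay above Col-0 in both treatments, and the responses were 2.03 in coi1-2, 1.44 in ein3 eil1 and 2.31 in Col-0 (SE 0.16).

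IAGLU encodes the glucosyltransferase that joins auxin (indole-3-acetic acid) to glucose, which stores or inactivates the hormone. With MeJA, IAGLU was at 10.16 and 10.09 in coi1-2, 7.78 and 8.20 in ein3 eil1 and 9.71 and 9.12 in Col-0. Mock levels of IAGLU were 9.05 and 9.08 in coi1-2, 6.35 and 6.76 in ein3 eil1 and 8.04 and 7.64 in Col-0. Here the order was reversed relative to APS3, with coi1-2 highest and ein3 eil1 lowest. The responses were 1.06 in coi1-2, 1.44 in ein3 eil1 and 1.58 in Col-0 (SE 0.21).

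**Figure D1:**
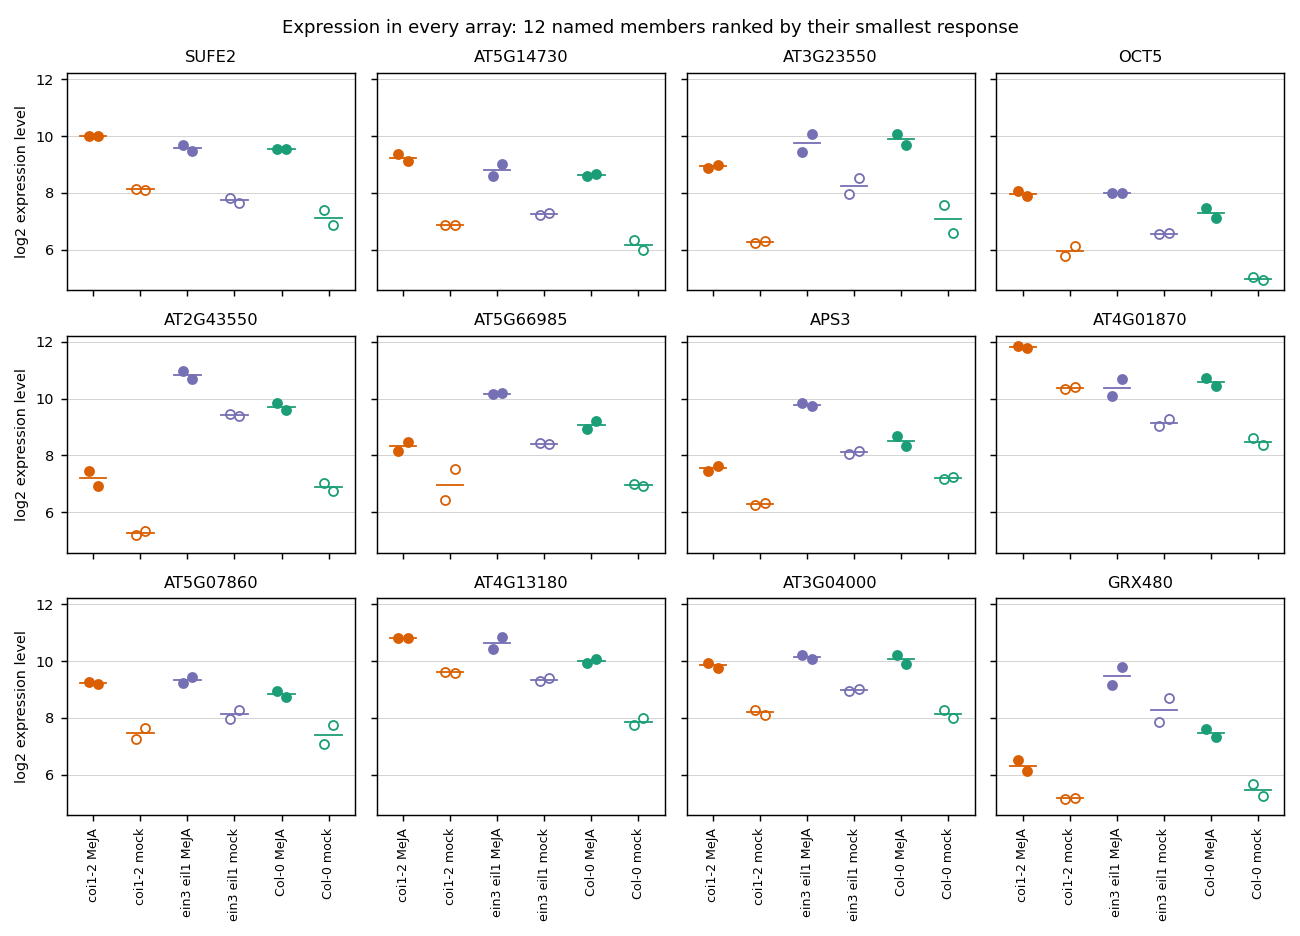
Log2 expression level (y axis) of the 12 named members with the highest value of their smallest response, in every array of the 6 groups (x axis). Filled points are MeJA arrays, open points mock arrays and lines the mean of 2 arrays; GRX480, APS3 and AT2G43550 are highest in ein3 eil1 and lowest in coi1-2, while AT4G01870 is highest in coi1-2.

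The named members with the highest smallest response, after SUFE2 at 1.84, included the locus AT5G14730. With MeJA, AT5G14730 was at 9.37 and 9.11 in coi1-2, 8.60 and 9.02 in ein3 eil1 and 8.57 and 8.66 in Col-0. Mock levels of AT5G14730 were 6.85 and 6.85 in coi1-2, 7.21 and 7.27 in ein3 eil1 and 6.33 and 6.0 in Col-0. Its responses were 2.39 in coi1-2, 1.57 in ein3 eil1 and 2.45 in Col-0 (SE 0.16). AT3G23550 had a wider range between genotypes. With MeJA, AT3G23550 was at 8.88 and 8.98 in coi1-2, 9.44 and 10.06 in ein3 eil1 and 10.07 and 9.69 in Col-0. Mock levels of AT3G23550 were 6.23 and 6.30 in coi1-2, 7.95 and 8.54 in ein3 eil1 and 7.55 and 6.58 in Col-0. Its responses were 2.66 in coi1-2, 1.51 in ein3 eil1 and 2.81 in Col-0 (SE 0.29), and its Col-0 mock arrays lay wide apart.

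Among named members, AT1G66100 and AT2G43550 had the widest differences in level between genotypes. With MeJA, AT2G43550 was at 7.46 and 6.94 in coi1-2, 10.97 and 10.70 in ein3 eil1 and 9.83 and 9.61 in Col-0. Mock levels of AT2G43550 were 5.20 and 5.31 in coi1-2, 9.45 and 9.40 in ein3 eil1 and 7.04 and 6.73 in Col-0. The ein3 eil1 mock arrays were close to the Col-0 MeJA arrays, and the coi1-2 MeJA arrays were close to the Col-0 mock arrays. With MeJA, AT1G66100 was at 6.39 and 5.38 in coi1-2, 11.92 and 11.84 in ein3 eil1 and 9.44 and 9.04 in Col-0. Mock levels of AT1G66100 were 4.19 and 4.63 in coi1-2, 10.60 and 10.91 in ein3 eil1 and 6.89 and 6.55 in Col-0. AT1G66100 in coi1-2 mock was below the array medians of 5.26 and 5.30, where the signal may be background. AT2G43550 in coi1-2 mock lay close to these medians, with replicate 1 below and replicate 2 just above, so its signal there may also be background. Every ein3 eil1 array of AT1G66100 was above every array of the other genotypes. The responses were 1.94 in coi1-2, 1.41 in ein3 eil1 and 2.84 in Col-0 (SE 0.18) for AT2G43550, and 1.47 in coi1-2, 1.13 in ein3 eil1 and 2.53 in Col-0 (SE 0.28) for AT1G66100.

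AT5G66985, AT4G01870, AT5G07860, AT4G13180 and AT3G04000 completed the 12 with the highest smallest response. With MeJA, AT5G66985 was at 8.16 and 8.47 in coi1-2, 10.16 and 10.20 in ein3 eil1 and 8.94 and 9.23 in Col-0. Mock levels of AT5G66985 were 6.41 and 7.51 in coi1-2, 8.42 and 8.40 in ein3 eil1 and 6.98 and 6.91 in Col-0. The coi1-2 mock arrays of AT5G66985 lay wide apart, and its responses were 1.35 in coi1-2, 1.77 in ein3 eil1 and 2.13 in Col-0 (SE 0.26). With MeJA, AT4G01870 was at 11.87 and 11.79 in coi1-2, 10.10 and 10.68 in ein3 eil1 and 10.73 and 10.46 in Col-0. Mock levels of AT4G01870 were 10.34 and 10.42 in coi1-2, 9.02 and 9.27 in ein3 eil1 and 8.60 and 8.35 in Col-0. This locus was the most abundant of the 12 in coi1-2 and responded by 1.45 in coi1-2, 1.24 in ein3 eil1 and 2.12 in Col-0 (SE 0.19).

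With MeJA, AT5G07860 was at 9.27 and 9.18 in coi1-2, 9.25 and 9.45 in ein3 eil1 and 8.96 and 8.75 in Col-0. Mock levels of AT5G07860 were 7.27 and 7.65 in coi1-2, 7.97 and 8.28 in ein3 eil1 and 7.09 and 7.74 in Col-0. Both ein3 eil1 mock arrays of AT5G07860 lay above both Col-0 mock arrays, and its responses were 1.77 in coi1-2, 1.22 in ein3 eil1 and 1.44 in Col-0 (SE 0.21). With MeJA, AT4G13180 was at 10.81 and 10.80 in coi1-2, 10.44 and 10.84 in ein3 eil1 and 9.95 and 10.09 in Col-0. Mock levels of AT4G13180 were 9.60 and 9.60 in coi1-2, 9.29 and 9.41 in ein3 eil1 and 7.74 and 7.98 in Col-0. In AT4G13180 both mutants were above Col-0 under mock, with no overlap, and the MeJA levels of the genotypes were closer together. Its responses were 1.20 in coi1-2, 1.29 in ein3 eil1 and 2.16 in Col-0 (SE 0.15). AT3G04000 was on the list of detoxification and electrophile response genes. With MeJA, AT3G04000 was at 9.93 and 9.77 in coi1-2, 10.22 and 10.06 in ein3 eil1 and 10.24 and 9.90 in Col-0. Mock levels of AT3G04000 were 8.30 and 8.12 in coi1-2, 8.95 and 9.02 in ein3 eil1 and 8.27 and 8.0 in Col-0. With MeJA, Col-0 overlapped both mutants for AT3G04000, and under mock ein3 eil1 was highest. The responses were 1.64 in coi1-2, 1.16 in ein3 eil1 and 1.93 in Col-0 (SE 0.15).

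Over the 89 members the median response was highest in Col-0. Responses ran from 0.82 to 3.15 in coi1-2 with a median of 1.35 (2.55-fold), from 0.81 to 3.87 in ein3 eil1 with a median of 1.16 (2.23-fold), and from 0.85 to 5.14 in Col-0 with a median of 1.79 (3.46-fold). Over all 22746 probe sets the medians were −0.0025 in coi1-2, 0.01 in ein3 eil1 and −0.03 in Col-0. The largest response of a member was in coi1-2 for 16 members, in ein3 eil1 for 3 and in Col-0 for 70. The smallest was in coi1-2 for 25, in ein3 eil1 for 59 and in Col-0 for 5. A response of at least 2 was reached by 18 members in coi1-2, 5 in ein3 eil1 and 38 in Col-0. The response in coi1-2 minus that in Col-0 had a median of −0.48 and a range of −3.05 to 0.92, and in ein3 eil1 minus Col-0 the median was −0.66 with a range of −3.07 to 0.73. Both differences share the Col-0 arrays, and since the rule sets a floor for every response they are not tested.

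**Figure D2:**
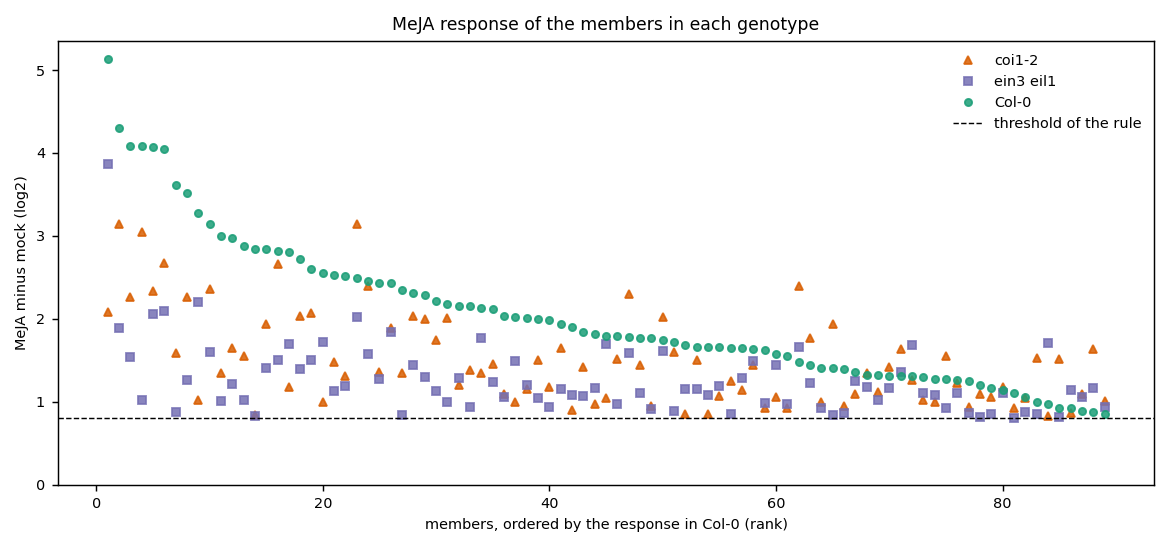
MeJA minus mock (log2, y axis) for the 89 members, ordered on the x axis by their response in Col-0. Triangles are coi1-2, squares ein3 eil1 and circles Col-0, and the dashed line is the threshold of 0.8. Towards the left nearly all mutant values lie below Col-0, where the order itself favours high Col-0 values. Towards the right Col-0 nears the threshold, and some mutant values lie well above Col-0 while others stay close to it. Examples above it are AT1G18980 (0.92 in Col-0, 1.52 in coi1-2) and AT4G15680 (0.97 in Col-0, 1.71 in ein3 eil1).

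AT1G09500 and AT4G24350 showed the widest spread of responses among named members. With MeJA, AT1G09500 was at 7.63 and 7.42 in coi1-2, 8.26 and 8.64 in ein3 eil1 and 8.63 and 8.39 in Col-0. Mock levels of AT1G09500 were 6.09 and 5.79 in coi1-2, 7.54 and 7.61 in ein3 eil1 and 5.10 and 4.70 in Col-0. Its responses were 1.58 in coi1-2, 0.88 in ein3 eil1 and 3.61 in Col-0 (SE 0.18), so that the response in coi1-2 was −2.03 ± 0.26 from that in Col-0 and the response in ein3 eil1 was −2.73 ± 0.26 (log2 difference, SE). With MeJA the ein3 eil1 and Col-0 arrays overlapped, and the difference of responses in ein3 eil1 lay in the mock arrays. With MeJA, AT4G24350 was at 5.50 and 5.25 in coi1-2, 8.21 and 7.82 in ein3 eil1 and 7.98 and 8.02 in Col-0. Mock levels of AT4G24350 were 4.59 and 4.11 in coi1-2, 5.72 and 5.91 in ein3 eil1 and 5.05 and 4.40 in Col-0. In AT4G24350 it was coi1-2 that lay low with MeJA, and the responses were 1.02 in coi1-2, 2.20 in ein3 eil1 and 3.28 in Col-0 (SE 0.22). The mock means of both genes in Col-0, and that of AT4G24350 in coi1-2, were below the array medians, where a signal may be background.

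After AT2G43550, AT1G66100 and AT3G23550, described above, AT1G29195 had the next widest spread. With MeJA, AT1G29195 was at 7.29 and 7.54 in coi1-2, 7.48 and 8.12 in ein3 eil1 and 7.81 and 7.83 in Col-0. Mock levels of AT1G29195 were 6.33 and 5.73 in coi1-2, 6.77 and 6.97 in ein3 eil1 and 6.0 and 5.33 in Col-0. All 3 genotypes were close with MeJA, and the responses were 1.38 in coi1-2, 0.93 in ein3 eil1 and 2.16 in Col-0 (SE 0.26).

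At the other end, AT2G47950 responded nearly alike in the 3 genotypes from very different starting levels. With MeJA, AT2G47950 was at 6.18 and 5.65 in coi1-2, 8.28 and 9.16 in ein3 eil1 and 6.62 and 6.63 in Col-0. Mock levels of AT2G47950 were 4.61 and 4.86 in coi1-2, 7.36 and 7.87 in ein3 eil1 and 5.57 and 5.41 in Col-0. The responses were 1.18 in coi1-2, 1.10 in ein3 eil1 and 1.14 in Col-0 (SE 0.26), while every ein3 eil1 mock array was above every MeJA array of the other genotypes. Both coi1-2 mock arrays of AT2G47950 lay below the array medians, where a signal may be background and a response may read too small. AT1G05575 was also highest in ein3 eil1 in both treatments. With MeJA, AT1G05575 was at 6.93 and 6.45 in coi1-2, 8.13 and 8.92 in ein3 eil1 and 6.38 and 6.72 in Col-0. Mock levels of AT1G05575 were 5.39 and 5.94 in coi1-2, 6.93 and 7.91 in ein3 eil1 and 5.28 and 5.24 in Col-0. Its responses were 1.02 in coi1-2, 1.11 in ein3 eil1 and 1.29 in Col-0 (SE 0.32), with the largest SE of any named member.

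AT4G00750, AT2G36970 and AT5G03490 also had even responses. With MeJA, AT4G00750 was at 6.10 and 6.10 in coi1-2, 6.45 and 6.39 in ein3 eil1 and 6.39 and 6.55 in Col-0. Mock levels of AT4G00750 were 4.93 and 5.09 in coi1-2, 5.25 and 5.10 in ein3 eil1 and 4.98 and 5.25 in Col-0. It responded by 1.09 in coi1-2, 1.25 in ein3 eil1 and 1.36 in Col-0 (SE 0.13). The mock means of AT4G00750 lay below the array medians in every genotype, where a signal may be background. With MeJA, AT2G36970 was at 5.06 and 5.35 in coi1-2, 5.73 and 5.60 in ein3 eil1 and 5.52 and 5.13 in Col-0. Mock levels of AT2G36970 were 4.25 and 3.94 in coi1-2, 4.43 and 4.85 in ein3 eil1 and 3.77 and 4.24 in Col-0. AT2G36970 had the lowest mean level of all members, below the array medians under mock in every genotype, with responses of 1.12 in coi1-2, 1.02 in ein3 eil1 and 1.32 in Col-0 (SE 0.21). With MeJA, AT5G03490 was at 7.53 and 7.59 in coi1-2, 7.36 and 7.45 in ein3 eil1 and 7.16 and 6.89 in Col-0. Mock levels of AT5G03490 were 6.49 and 6.52 in coi1-2, 6.51 and 6.59 in ein3 eil1 and 6.04 and 5.68 in Col-0. The responses of AT5G03490 were 1.05 in coi1-2, 0.85 in ein3 eil1 and 1.16 in Col-0 (SE 0.14), with Col-0 lowest in both treatments.

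Responses alone are given for AT1G75280, AT1G33110, AT1G14130, AT4G38810 and AT5G16450. AT1G75280 responded by 1.14 in coi1-2, 1.29 in ein3 eil1 and 1.64 in Col-0 (SE 0.21), and AT1G33110 by 1.42 in coi1-2, 1.06 in ein3 eil1 and 1.84 in Col-0 (SE 0.14). AT1G14130 was among those with the widest gap between the mutants, with 2.01 in coi1-2, 1.00 in ein3 eil1 and 2.18 in Col-0 (SE 0.18). AT4G38810 had 0.93 in coi1-2, 0.99 in ein3 eil1 and 1.62 in Col-0 (SE 0.12) and AT5G16450 had 0.94 in coi1-2, 0.87 in ein3 eil1 and 1.25 in Col-0 (SE 0.18).

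The question that the rule leaves free is how abundant these transcripts were in each genotype. The mean of the MeJA and mock levels of a genotype is uncorrelated with its MeJA response when both groups hold 2 arrays, so this mean was tested across all probe sets (limma, Benjamini-Hochberg adjusted p under 0.05). In ein3 eil1 most members were more abundant than in Col-0: 60 of 89 were higher (67.4%) and 6 lower (6.74%). Over all 22746 probe sets 7.31% were higher and 4.89% lower. The members were brighter than most probe sets, with 87 of them among the 11373 above the 50th percentile of mean level. In a fit of those 11373, 61 members were higher and 6 lower, against 11.9% and 9.17% of the probe sets. The median difference was 0.67 for the members, with 78 above 0 and 11 below 0, and −0.01 for all probe sets. The count higher was between 48 (without ein3 eil1 mock replicate 2) and 62 when single arrays were left out.

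The named members with the smallest adjusted p among those higher in this comparison were AT1G66100, AT2G43550, GRX480, AT2G47950, APS3 and AT1G72940. AT1G66100 averaged 11.32 in ein3 eil1 and 7.98 in Col-0, a difference of 3.34 ± 0.20 (adjusted p = 2.42e-07). Here ± is the limma SE for means of 4 arrays per genotype, with the spread estimated from all 12 arrays. AT2G43550 differed by 1.83 ± 0.13 (adjusted p = 1.15e-06). GRX480 averaged 8.88 in ein3 eil1 and 6.46 in Col-0 and differed by 2.42 ± 0.19 (adjusted p = 3.27e-06). AT2G47950 differed by 2.11 ± 0.19 (adjusted p = 8.41e-06) and APS3 by 1.10 ± 0.10 (adjusted p = 9.43e-06). All 4 ein3 eil1 arrays of AT1G66100 were above all Col-0 arrays, whereas for APS3 the ein3 eil1 mock arrays lay below the Col-0 MeJA arrays.

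With MeJA, AT1G72940 was at 7.34 and 7.35 in coi1-2, 8.43 and 8.66 in ein3 eil1 and 7.44 and 7.23 in Col-0. Mock levels of AT1G72940 were 6.12 and 6.77 in coi1-2, 7.19 and 7.75 in ein3 eil1 and 5.41 and 5.45 in Col-0. The difference of AT1G72940 was 1.63 ± 0.15 (adjusted p = 1.38e-05), and its responses were 0.90 in coi1-2, 1.08 in ein3 eil1 and 1.90 in Col-0 (SE 0.21). OCT5 was higher by 1.15 ± 0.11 (adjusted p = 1.67e-05) and AT4G13180 by 1.05 ± 0.11 (adjusted p = 2.46e-05). SIR differed by 0.38 ± 0.10 (adjusted p = 0.0213), a call lost with arrays centred on their medians (0.32, adjusted p = 0.0742). The SIR call was also lost without Col-0 mock replicate 2 (0.29, adjusted p = 0.0777), ein3 eil1 mock replicate 1 (0.36, adjusted p = 0.077) or 2 (0.40, adjusted p = 0.0536), Col-0 MeJA replicate 1 (0.39, adjusted p = 0.056) or 2 (0.37, adjusted p = 0.0623), or ein3 eil1 MeJA replicate 1 (0.34, adjusted p = 0.0548). SUFE2, at 0.32 ± 0.11 (adjusted p = 0.0959), did not pass.

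IAGLU and AT1G18980 were the named members that were lower in ein3 eil1. IAGLU averaged 7.27 in ein3 eil1 and 8.63 in Col-0, a difference of −1.36 ± 0.15 (adjusted p = 6.18e-05). With MeJA, AT1G18980 was at 7.70 and 7.79 in coi1-2, 5.31 and 6.13 in ein3 eil1 and 6.43 and 6.49 in Col-0. Mock levels of AT1G18980 were 6.10 and 6.35 in coi1-2, 4.86 and 4.96 in ein3 eil1 and 5.48 and 5.60 in Col-0. AT1G18980 differed by −0.69 ± 0.15 (adjusted p = 0.00785), and its mock arrays in ein3 eil1 lay below the array medians. Every other named member had a positive difference in ein3 eil1, of which AT1G29195, AT3G23550, SUFE2, AT4G01870 and AT4G00750 did not pass. Among those that passed, 3 calls were lost more often than that of SIR. They were AT2G36970 (lost in 12 of 20 alternative runs), AT5G16450 (11 of 21) and AT4G24350 (10 of 21).

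In coi1-2 the members split in both directions. Compared with Col-0, 57 of 89 passed in either direction, against 18.7% of all probe sets. Of these, 31 were higher (34.8%) and 26 lower (29.2%), with a median difference of 0.06 and a range of −3.08 to 2.22. Of all probe sets 10.1% were higher and 8.52% lower. AT4G01870 averaged 11.10 in coi1-2 and 9.53 in Col-0 and had the largest positive difference among named members, 1.57 ± 0.13 (adjusted p = 4.26e-06). AT4G13180 was higher by 1.26 ± 0.11 (adjusted p = 4.15e-06), and OCT5 by 0.83 ± 0.11 (adjusted p = 0.000195). SUFE2 was higher by 0.74 ± 0.11 (adjusted p = 0.000602), IAGLU by 0.97 ± 0.15 (adjusted p = 0.000675) and AT1G18980 by 0.99 ± 0.15 (adjusted p = 0.000468). The direction of IAGLU and AT1G18980 was thus opposite to that in ein3 eil1.

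Among named members AT1G66100 and AT2G43550 were the lowest in coi1-2 relative to Col-0. AT1G66100 averaged 5.15 in coi1-2 and 7.98 in Col-0, a difference of −2.83 ± 0.20 (adjusted p = 9.72e-07), and AT2G43550 differed by −2.08 ± 0.13 (adjusted p = 3.55e-07). AT4G24350 differed by −1.50 ± 0.16 (adjusted p = 2.68e-05) and APS3 by −0.94 ± 0.10 (adjusted p = 2.78e-05). With MeJA, AT4G15680 was at 6.37 and 6.20 in coi1-2, 8.08 and 8.14 in ein3 eil1 and 7.39 and 7.13 in Col-0. Mock levels of AT4G15680 were 5.22 and 5.71 in coi1-2, 6.29 and 6.52 in ein3 eil1 and 6.27 and 6.31 in Col-0. The difference of AT4G15680 was −0.90 ± 0.12 (adjusted p = 0.000171), and its responses were 0.82 in coi1-2, 1.71 in ein3 eil1 and 0.97 in Col-0 (SE 0.17).

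With MeJA, AT3G50270 was at 6.76 and 6.89 in coi1-2, 7.85 and 8.04 in ein3 eil1 and 7.80 and 7.45 in Col-0. Mock levels of AT3G50270 were 5.74 and 6.05 in coi1-2, 6.99 and 6.94 in ein3 eil1 and 6.23 and 5.93 in Col-0. AT3G50270 differed in coi1-2 by −0.49 ± 0.12 (adjusted p = 0.00962), and its responses were 0.93 in coi1-2, 0.98 in ein3 eil1 and 1.55 in Col-0 (SE 0.16). SIR differed by −0.38 ± 0.10 (adjusted p = 0.0146), a call lost without Col-0 mock replicate 1 (−0.30, adjusted p = 0.0592) or coi1-2 MeJA replicate 1 (−0.35, adjusted p = 0.0682). GRX480 differed by −0.73 ± 0.19 (adjusted p = 0.0183). This call did not hold when Col-0 mock replicate 1 was dropped (−0.61, adjusted p = 0.0779), nor for Col-0 MeJA replicate 1 (−0.66, adjusted p = 0.0614) or coi1-2 MeJA replicate 2 (−0.63, adjusted p = 0.0809).

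**Figure D3:**
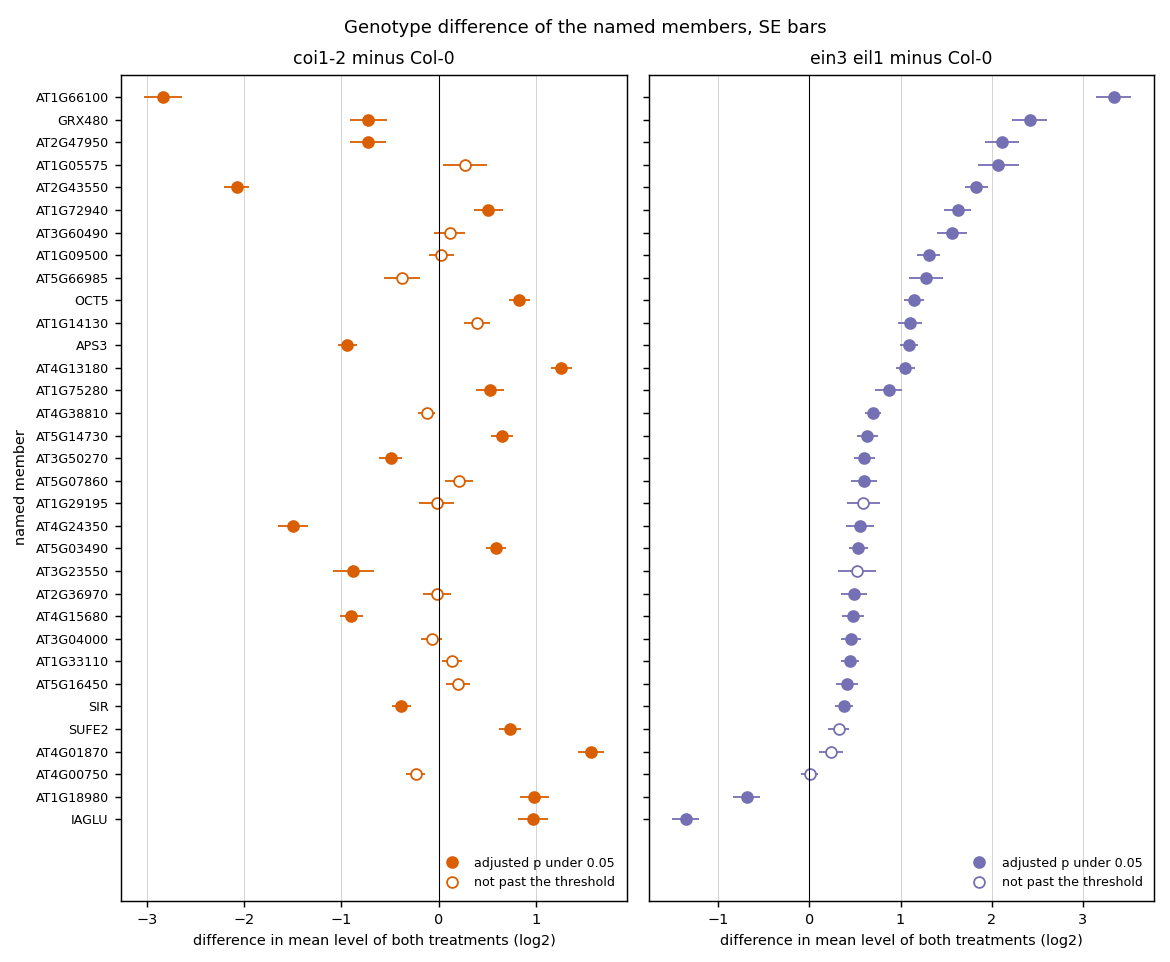
Difference from Col-0 in the mean level of both treatments (log2, x axis) for the 33 named members (y axis), coi1-2 on the left and ein3 eil1 on the right. Bars are the SE, filled points passed an adjusted p under 0.05; nearly all members lie right of 0 in ein3 eil1, IAGLU and AT1G18980 being left of it, while coi1-2 has members on either side.

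Set directly against coi1-2, ein3 eil1 had 50 members higher (56.2%) and 13 lower (14.6%), with 12.4% of all probe sets in each direction. Among the 11373 probe sets above the 50th percentile of mean level, 20% were higher and 21.8% lower. In that fit 49 members were higher and 15 lower, so the share of members lower was not above that of probe sets of like level. The 3 comparisons share arrays with each other. AT1G66100 was 6.17 ± 0.20 (adjusted p = 4.04e-10) higher in ein3 eil1, AT2G43550 3.91 ± 0.13 (adjusted p = 4.78e-10) and GRX480 3.14 ± 0.19 (adjusted p = 9.31e-08). APS3 averaged 8.95 in ein3 eil1 and 6.91 in coi1-2 and differed by 2.03 ± 0.10 (adjusted p = 9.98e-09). IAGLU averaged 7.27 in ein3 eil1 and 9.60 in coi1-2 and differed by −2.33 ± 0.15 (adjusted p = 1.88e-07). AT2G47950 differed by 2.84 ± 0.19 (adjusted p = 1.90e-07) and AT4G24350 by 2.05 ± 0.16 (adjusted p = 7.54e-07). Besides IAGLU, AT1G18980 was lower in ein3 eil1, with −1.67 ± 0.15 (adjusted p = 2.97e-06), as was AT4G01870, with −1.34 ± 0.13 (adjusted p = 8.16e-06). SUFE2 differed by −0.42 ± 0.11 (adjusted p = 0.0168), a call lost without ein3 eil1 mock replicate 2 (−0.38, adjusted p = 0.0683), coi1-2 MeJA replicate 1 (−0.42, adjusted p = 0.0515) or 2 (−0.42, adjusted p = 0.0514), or ein3 eil1 MeJA replicate 2 (−0.37, adjusted p = 0.0501).

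**Figure D4:**
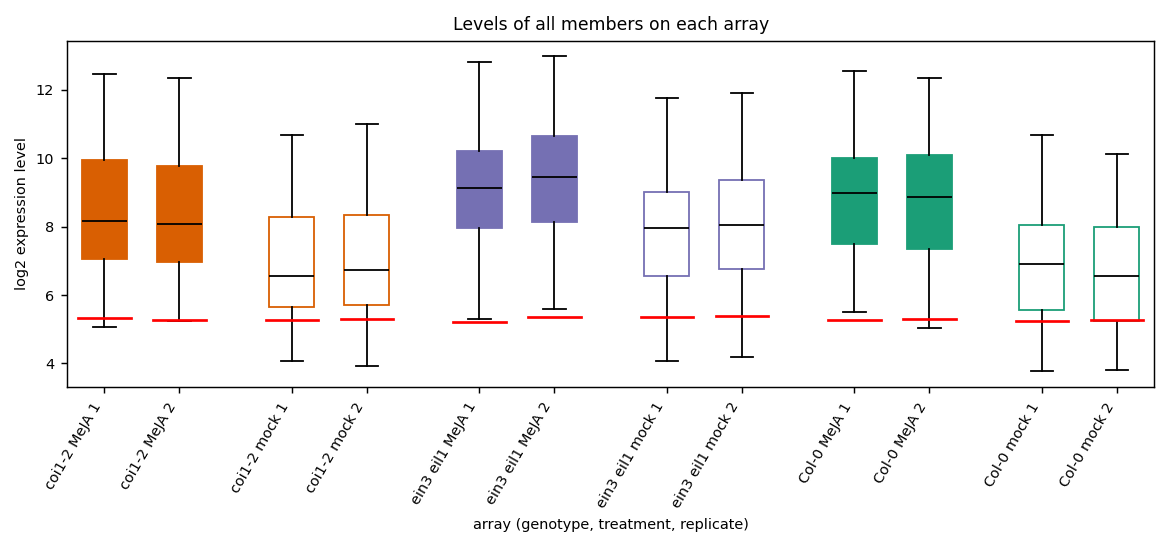
Log2 expression level (y axis) of the 89 members on each of the 12 arrays (x axis). Boxes span the quartiles with the median as a line, whiskers reach the lowest and highest member, filled boxes are MeJA arrays and red bars the median of all probe sets on that array; the ein3 eil1 mock medians of 7.95 and 8.04 lie above the Col-0 mock medians of 6.90 and 6.55.

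By treatment, the median level of the members was 8.16 and 8.08 in coi1-2 MeJA against 6.55 and 6.74 in coi1-2 mock. It was 9.12 and 9.44 in ein3 eil1 MeJA against 7.95 and 8.04 in ein3 eil1 mock, and 8.99 and 8.85 in Col-0 MeJA against 6.90 and 6.55 in Col-0 mock. The ein3 eil1 mock arrays thus stood between Col-0 mock and Col-0 MeJA. Under mock the median difference from Col-0 was 1.05 in ein3 eil1 and 0.32 in coi1-2, and with MeJA it was 0.30 in ein3 eil1 and −0.08 in coi1-2. Both ein3 eil1 mock arrays lay above both Col-0 mock arrays in 72 of 89 members and below them in 6, against 23.2% and 29.5% of all probe sets. Both coi1-2 mock arrays lay above both Col-0 mock arrays in 44 members and below them in 28, against 23.7% and 28.6%. The mock arrays entered the rule, so these counts are a description.

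The higher level in ein3 eil1 was also seen in probe sets that met the rule in Col-0 but not in all 3 genotypes. Of these 574, 317 were higher in ein3 eil1 (55.2%) and 38 lower (6.62%), with a median difference of 0.53. In coi1-2, 169 of them were higher (29.4%) and 192 lower (33.4%), with a median of −0.06. Another 133 probe sets met the rule in ein3 eil1 but not in all 3 genotypes. Of these, 84 were higher in ein3 eil1 than in Col-0 (63.2%) and 11 lower (8.27%), with a median of 0.67, close to the members. For the 185 that met it in coi1-2 but not in all 3, 89 were higher in ein3 eil1 (48.1%) and 19 lower (10.3%), with a median of 0.35. Of the 11 probe sets left out for a UGT or GST symbol, 9 were higher in ein3 eil1 and 0 lower (limma), and 6 were higher and 3 lower in coi1-2. Whether the members differ from these sets was not tested.

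Most of the other pathway genes looked up had no named probe set here. A gene is called measured when it had one, so the rest could be among the members without a gene name. Of the 37 genes on the detoxification list 9 were measured, and 4 of these met the rule: the member AT3G04000 and GSTU25, UGT73B4 and UGT73B5. Of the other 5, 2 rose in coi1-2, 0 in ein3 eil1 (limma, with 0 at an unadjusted p under 0.05) and 2 in Col-0. Over all probe sets 1.54% rose and 0.998% fell in coi1-2, 1.64% rose and 2.59% fell in ein3 eil1, and 4.54% rose and 3.05% fell in Col-0. The 2 were AER, an alkenal reductase, at 0.89 in coi1-2, 0.11 in ein3 eil1 and 1.28 in Col-0 (SE 0.16), and AT5G16980, at 2.39 in coi1-2, 0.55 in ein3 eil1 and 2.34 in Col-0 (SE 0.38). Median responses of the 5 were 0.06 in coi1-2, 0.11 in ein3 eil1 and 0.38 in Col-0. Over all lists, and with the genes that met the rule set aside (GSTU25, UGT73B4 and UGT73B5 as well as the members), 6 genes passed in coi1-2, 1 in ein3 eil1 and 8 in Col-0; without coi1-2 MeJA replicate 1 the count in coi1-2 was 1, and in ein3 eil1 it was 0 to 4 as single arrays were left out.

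Of 10 jasmonate breakdown genes 4 had a named probe set, and 0 of these 4 met the rule. The others could lie among the probe sets without a gene name, members included. In coi1-2 3 of the 4 rose and in Col-0 3 of the 4 rose, and in ein3 eil1 0 passed in limma with 3 at an unadjusted p under 0.05. The 3 were JRG21, AT2G38240 and AT5G05600 in both coi1-2 and Col-0. JRG21, a jasmonate oxidase, was at 1.81 in coi1-2, 0.72 in ein3 eil1 and 3.08 in Col-0 (SE 0.29), so that it missed the rule in ein3 eil1 alone. Of 13 jasmonate synthesis genes 2 were measured, and OPCL1, a CoA ligase, rose in Col-0 by 1.33 and was at 0.25 in coi1-2 and −0.01 in ein3 eil1 (SE 0.14). In the ethylene list 3 of 14 genes were measured and 0 changed with MeJA in any genotype in limma, with 1 at an unadjusted p under 0.05 in Col-0. The defensin gene PDF1.2 of that list averaged 4.37 higher in ein3 eil1 than in Col-0 over both treatments (SE 0.29, adjusted p = 7.98e-07), a difference in the direction of most members.

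The other lists held few measured genes, that is, genes with a named probe set. For the JAZ repressors and MYC factors (2 measured), anthocyanin synthesis (3), heat shock (1) and shoot markers (1), limma called 0 in any genotype. At an unadjusted p under 0.05 there was 1 heat shock gene in coi1-2, 1 anthocyanin gene in ein3 eil1 and 0 others. THI2.1, the single measured gene of the classical COI1-dependent targets, rose in ein3 eil1 by 0.93 (SE 0.21). Its ein3 eil1 means of 3.50 with mock and 4.43 with MeJA both lay below the array medians, where a signal may be background. AT2G04400, the single measured gene of tryptophan metabolism, rose in Col-0 by 1.62 (SE 0.15), against −0.17 in coi1-2 and 0.48 in ein3 eil1. Of the root markers PYK10 rose in coi1-2 by 0.74 (SE 0.13) and AT3G01190 fell in Col-0 by 1.26 on the log2 scale (SE 0.25). No gene of the list of TGA factors and SCL14 had a named probe set here.

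The threshold of 0.8 separated genes with nearly the same values. The named members just inside were AT1G18980, with a smallest response of 0.82 in ein3 eil1, AT4G15680 with 0.82 in coi1-2 and AT3G60490 with 0.85 in coi1-2. With MeJA, AT3G60490 was at 6.01 and 6.16 in coi1-2, 7.53 and 7.77 in ein3 eil1 and 6.41 and 6.33 in Col-0. Mock levels of AT3G60490 were 4.75 and 5.71 in coi1-2, 6.54 and 6.60 in ein3 eil1 and 4.75 and 4.68 in Col-0. Its responses were 0.85 in coi1-2, 1.08 in ein3 eil1 and 1.65 in Col-0 (SE 0.23). Just outside were AT1G04770, AT2G40200 and AT3G51450, each with its smallest response in coi1-2. With MeJA, AT1G04770 was at 7.91 and 7.67 in coi1-2, 8.45 and 8.73 in ein3 eil1 and 8.52 and 7.94 in Col-0. Mock levels of AT1G04770 were 6.93 and 7.06 in coi1-2, 7.56 and 7.86 in ein3 eil1 and 6.85 and 6.97 in Col-0. AT1G04770 missed the threshold in coi1-2 (0.796 before rounding to 2 decimals), with responses of 0.80 in coi1-2, 0.88 in ein3 eil1 and 1.32 in Col-0 (SE 0.19). With MeJA, AT2G40200 was at 4.28 and 4.19 in coi1-2, 5.79 and 5.86 in ein3 eil1 and 5.31 and 5.90 in Col-0. Mock levels of AT2G40200 were 3.31 and 3.59 in coi1-2, 4.50 and 4.14 in ein3 eil1 and 3.54 and 3.49 in Col-0. The coi1-2 value of AT2G40200 was the smallest of its responses, 0.78 in coi1-2, 1.51 in ein3 eil1 and 2.09 in Col-0 (SE 0.19). With MeJA, AT3G51450 was at 6.40 and 6.05 in coi1-2, 10.25 and 10.05 in ein3 eil1 and 8.96 and 9.17 in Col-0. Mock levels of AT3G51450 were 5.43 and 5.45 in coi1-2, 9.17 and 9.18 in ein3 eil1 and 6.79 and 6.27 in Col-0. AT3G51450 had the widest spread of these 3, with 0.78 in coi1-2, 0.98 in ein3 eil1 and 2.54 in Col-0 (SE 0.18).

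The named genes outside the members with the pattern most like the members' mean profile over the 12 arrays were UGT73C1 (Pearson r = 0.9703), UGT76E12 (0.9672), UGT76B1 (0.9666), UGT76E11 (0.966) and AT1G04770 (0.9658). The first 4 met the rule and had been left out for their symbol, and the fifth is the gene just outside the threshold in coi1-2. The arrays share the MeJA response, so these correlations describe a choice by that response. On the chromosomes the named genes that met the rule were scattered. Within 3 genes of each other lay UGT73B5 and UGT73B4, and UGT76E12 and UGT76E11, all left out by symbol, while 0 pairs of named members lay that close.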

How the data were processed

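Affymetrix ATH1 arrays of 12 seedling samples, 2 in each of 6 groups, were hybridised with biotin-labelled RNA prepared from 100 ng of total RNA, per the labels' protocols. The deposited table holds log2 expression values; the submitters' processing notes name RMA, Affymetrix Expression Console and Partek, with no version, order or genome build in the sources used here. RMA compresses the changes of dim probe sets. The deposited arrays did not share one distribution, with medians of 5.22 to 5.39. Control probe sets (AFFX) were left out, which left 22746. Probe sets were named from GEO's platform annotation, with 13513 given 1 gene name, 503 several and 8730 none here. Of those with 1 gene name, 13436 were matched to the RefSeq gene table by Entrez gene identifier. No background or detection call was at hand, and the small number of arrays limits the precision.

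The model held a mean for each group, estimated from all 12 arrays in limma (version 3.58.1, R 4.3.3) by lmFit and eBayes (6 residual and 6.28 prior degrees of freedom, Benjamini-Hochberg over all probe sets, adjusted p under 0.05). Tables and plots were made with Python 3.11.15, pandas 2.3.3 and matplotlib 3.10.9, and the fit was tested on simulated data. The members and gene lists were chosen with earlier results of these data known. Named genes were the 12 named members with the highest smallest response, the 6 with the widest and the 6 with the narrowest spread of responses, up to 6 called members per genotype comparison and direction with the smallest adjusted p, members on a list, and 3 genes on each side of the threshold. Other normalizations, filters, variance models, thresholds, array weights, a replicate block and the omission of single arrays were tried. The differences between replicate 1 and replicate 2 of a group correlated between groups at −0.218 to 0.232 over 15 pairs of groups, 4 of them over 0.1. Replicate numbers were not used as pairs in the main fit, and whether they pair samples is not settled by these values. Promoter sequences were not used here, so the planned motif counts were not made.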

Additional observations from a re-analysis of the deposited data

How the results depend on the processing

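The number of members was 54 with a threshold of 1, and 87 to 102 under the other normalizations and filters; it was 73 to 110 when single arrays were left out. Counts of members that passed between genotypes were within 1.5 times of the reported ones in every alternative run; single arrays left out gave 50 to 60 for coi1-2 against Col-0, 53 to 68 for ein3 eil1 against Col-0 and 55 to 64 for ein3 eil1 against coi1-2. With the replicate number as a block (replicate block) these were 58, 64 and 64, against 57, 66 and 63 without it. List genes that did not meet the rule passed in ein3 eil1 in 1 case, against 4 with arrays centred on their medians, 0 above the 25th or 50th percentile of mean level, 3 with a trended and robust variance and 3 with the replicate block, and 0 to 4 without single arrays. In coi1-2 they numbered 6, and 1 to 7 without single arrays. The cause was not tested. With arrays centred, all probe sets split into 1358 higher and 1584 lower in ein3 eil1 than in Col-0, against 1663 and 1112 as deposited; of the members 56 were higher and 8 lower. Of 74 calls of single named members 56 held in every alternative run, 18 were lost in at least 1, and 0 reversed. Motif counts in promoters were not run.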
